A study of Mus musculus with 6 samples.

Results

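The Lrig family consists of *Lrig1*, *Lrig2* and *Lrig3*, and its transcripts were examined in splenic CD4+ T cells sorted by surface Lrig1. Members were taken by gene symbol, which gave 3 of the 45777 genes and 14 of the 129299 RefSeq transcripts listed, 8 of them for *Lrig1*, 5 for *Lrig2* and 1 for *Lrig3*. CD4+Lrig1+ and CD4+Lrig1- T cells came from the spleens of female C57BL/6 mice, an inbred strain, at 7 weeks of age in both groups, and the labels name no engineered allele or treatment. The labels list 3 samples per group. The data used here are 4 bulk RNA libraries, 2 per group, in 2 tables that hold 1 library of each group (called set 1 and set 2). The labels do not say whether libraries came from separate mice or sorts, so p-values measure the spread between these libraries only. In bulk RNA, fewer cells of a type and less RNA per cell cannot be told apart.

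Lrig proteins are single-pass membrane proteins whose outer part carries leucine-rich repeats followed by immunoglobulin-like domains. Lrig1 is best known as a brake on receptor tyrosine kinases of the ErbB family, which it helps to remove from the cell surface together with the ubiquitin ligase Cbl, and as a marker of slowly cycling epithelial stem cells. Lrig2 protects the receptor neogenin from shedding by the protease Adam17, and Lrig3 is known for opposing netrin 1 during the shaping of the inner ear. In T cells, Lrig1 has been studied as a surface protein of regulatory T (Treg) cells, which restrain other immune cells.

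The sequences just before the starts of the main *Lrig1* and *Lrig2* transcripts are shown because both genes are transcribed in these cells while the groups differ in *Lrig1*. *Lrig1* (gene ID 16206) lies on chromosome 6 of GRCm38 from 94604529 to 94700298, on the minus strand. *Lrig2* (gene ID 269473) lies on chromosome 3 from 104453980 to 104511918, also on the minus strand. The 250 bases that precede the starts of NM_008377 (*Lrig1*) and of NM_001025067 and NM_001310698 (*Lrig2*) (RefSeq, GRCm38.p6, minus strand, 5′ to 3′) are given with capitals marking matches to the GC box letters GGGCGG and the CCAAT box letters CCAAT, each searched on both strands.
Lrig1, chr6:94700146-94700395: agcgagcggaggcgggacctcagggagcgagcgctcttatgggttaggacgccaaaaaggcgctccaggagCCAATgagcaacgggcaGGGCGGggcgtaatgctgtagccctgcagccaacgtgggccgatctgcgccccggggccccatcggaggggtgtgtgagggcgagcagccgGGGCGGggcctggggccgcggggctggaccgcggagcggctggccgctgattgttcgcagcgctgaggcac
Lrig2, chr3:104511919-104512168: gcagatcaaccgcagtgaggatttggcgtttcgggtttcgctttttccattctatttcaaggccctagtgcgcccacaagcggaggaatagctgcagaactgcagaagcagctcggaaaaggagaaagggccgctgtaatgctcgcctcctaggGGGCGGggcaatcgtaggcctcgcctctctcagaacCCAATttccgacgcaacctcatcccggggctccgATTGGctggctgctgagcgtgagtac
The *Lrig1* window reaches 153 bases into the span of the gene as listed, since the minor transcripts XR_377425 and XM_030255196 start within it. It is 71.6% G or C with 26 CpG pairs, and holds 2 GC boxes and 1 CCAAT box. The *Lrig2* window is 57.6% G or C with 17 CpG pairs, and holds 1 GC box and 2 CCAAT boxes. The corresponding window of *Lrig3* (gene ID 320398, chromosome 10 from 125966219 to 126015359, plus strand) is 66.0% G or C and holds 1 box of each kind. Of 32851 such windows, 32.7% hold a GC box, 33.8% a CCAAT box and 12.4% the TATA box letters TATAAA, which none of the 3 family windows holds. These are matches of letters and not measured binding sites.

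The libraries held from 44865070 to 59977951 estimated counts. All 10 T cell markers examined were detected, and their summed level was 5183 to 7955 CPM (estimated counts scaled to library size with edgeR's TMM factors). The 8 Treg markers summed to 2513 CPM in CD4+Lrig1+ against 268 CPM in CD4+Lrig1- cells in set 1, and to 2327 against 201 CPM in set 2. B cell markers summed to 82.1 and 61.2 CPM in set 1 and to 333 and 640 CPM in set 2, CD8 T cell markers to 14.1 and 19.5, then 51.6 and 97.3, and NK cell markers to 9.63 and 35.0, then 20.5 and 77.0, with CD4+Lrig1+ first in each pair. Sums over the other lists were 36.9 to 166 CPM for myeloid, 4.31 to 44.2 for erythroid, 0.111 to 2.99 for platelet (*Pf4* and *Ppbp* at 0 in at least 1 library) and 166 to 221 for stromal, endothelial and epithelial markers (*Col3a1* and *Krt8* at 0 in at least 1 library). Most of the last sum was *Pecam1*, with 170 and 149 CPM in CD4+Lrig1+ cells of set 1 and set 2 against 207 and 214. *Epcam* had 10.7 and 15.1 CPM against 2.3 and 3.54, and *Cdh5* 0.365 and 0.4 against 1.57 and 2.63. *Col1a1* had 1.27 and 0.888 CPM against 0.251 and 0.759. The part of these other cell types in the results on the family was not tested.

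*Lrig1* was the most abundant family member in each of the 4 libraries, *Lrig2* came next and *Lrig3* had under 1 CPM. Levels of different genes were compared per length, in TPM (fragments divided by transcript length and scaled to the same total in every library, summed per gene). *Lrig1* had 110 and 40.0 TPM in CD4+Lrig1+ cells of set 1 and set 2, against 39.1 and 10.4 TPM in CD4+Lrig1- cells. *Lrig2* had 15.1 and 4.61 TPM in CD4+Lrig1+ cells, against 17.2 and 5.92 TPM in CD4+Lrig1- cells. *Lrig3* had 0.492 and 0.199 TPM in CD4+Lrig1+ cells, against 0.561 and 0.133 TPM in CD4+Lrig1- cells. The order of the 3 genes was therefore the same in every library, whereas their levels varied between libraries. Among the genes tested, the TPM of *Lrig1* exceeded that of 90.6% and 81.5% of them in CD4+Lrig1+ cells and of 70.9% and 56.3% in CD4+Lrig1- cells. *Lrig2* stayed near the middle, above 42.8% to 53.3% of genes, and *Lrig3* above 11.4% to 14.2%.

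**Figure D1:**
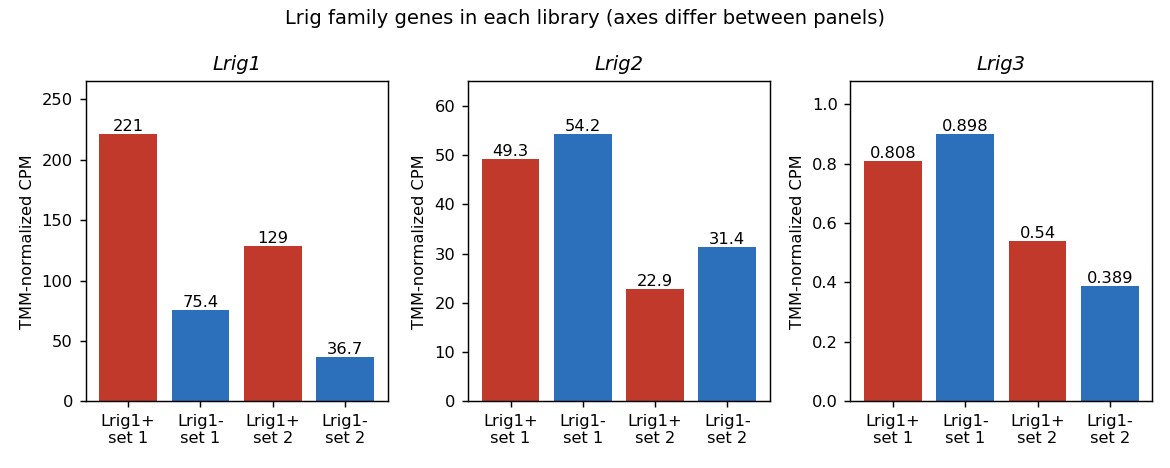
Level of *Lrig1*, *Lrig2* and *Lrig3* in CPM in each library, with 1 panel per gene, whose axes differ, and 1 bar per library, red for CD4+Lrig1+ and blue for CD4+Lrig1-. *Lrig1* is higher in CD4+Lrig1+ cells in both sets (221 against 75.4 CPM and 129 against 36.7 CPM), *Lrig2* is lower in both, and *Lrig3* stays below 1 CPM in every library.

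*Lrig1* transcripts were 2.94-fold higher in CD4+Lrig1+ than in CD4+Lrig1- cells in set 1 and 3.51-fold higher in set 2. The cells were sorted by Lrig1 protein, so this difference is a check of the sorted groups at the RNA level and not an independent finding. The estimated counts were 11508 and 7387 in the CD4+Lrig1+ libraries of set 1 and set 2, against 3609 and 1981 in the CD4+Lrig1- libraries. The FPKM values (fragments mapped, divided by transcript length and library size) were 42.5 and 23.7, against 14.6 and 6.24. In CPM the groups did not overlap, with the lower CD4+Lrig1+ value above the higher CD4+Lrig1- value, as held for 14.3% of the 16123 genes tested (35.9% were higher in both sets). *Lrig1* RNA was well detected in cells sorted as lacking the protein. The log2 ratio was 1.55 in set 1 (95% counting interval 1.5 to 1.61) and 1.81 in set 2 (1.74 to 1.88). These intervals cover counting error only.

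Over the 4 libraries, the mean level of *Lrig1* was 175 ± 65.5 CPM in CD4+Lrig1+ and 56.0 ± 27.4 CPM in CD4+Lrig1- cells (SD, n = 2 each). The log2 fold change of *Lrig1* was 1.64 ± 0.54 (SE, 95% interval 0.13 to 3.15), with an unadjusted p of 0.039 and a Benjamini-Hochberg adjusted p of 0.819 by edgeR's quasi-likelihood test. In that model 0.0% of genes were called higher, and 0.0% lower, at an adjusted p under 0.05. Unadjusted p under 0.05 was reached by 674 genes in the higher direction (4.18%) and 227 in the lower (1.41%), and *Lrig1* ranked 768 by p. Called genes numbered 260 higher and 50 lower by the DESeq2 Wald test, and 179 and 14 by edgeR's exact test. With the set of each library as a further term (the table block), the *Lrig1* log2 fold change was 1.68 ± 0.09 (SE, 1.48 to 1.88), with an adjusted p of 2.78e-05. That model called 14.6% of genes higher and 12.8% lower, and placed *Lrig1* at 102 by p. The *Lrig1* fold change exceeded that of 94.3% of genes tested with the block and 94.4% without it. The *Lrig1* call thus depended on the term for the set. The fit without that term counts differences between sets as spread within a group.

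*Lrig2* did not pass the test in either model, and its ratios were small and below 0 on the log2 scale in both sets. Its estimated counts were 2564 and 1313 in the CD4+Lrig1+ libraries of set 1 and set 2, against 2593 and 1696 in the CD4+Lrig1- libraries. On the CPM scale these were 49.3 and 22.9, against 54.2 and 31.4, so the groups overlapped while each CD4+Lrig1+ library was below its partner in the same set, as for 41.3% of genes tested. The FPKM values showed the same order, with 5.83 and 2.73 against 6.43 and 3.54. The log2 ratio was -0.14 (-0.21 to -0.06) in set 1 and -0.46 (-0.56 to -0.35) in set 2. The *Lrig2* log2 fold change was -0.25 ± 0.54 (SE, -1.74 to 1.25) with an adjusted p of 1.0 in edgeR's quasi-likelihood test. With the table block it was -0.29 ± 0.10 (SE, -0.53 to -0.05), with an unadjusted p of 0.0235 (in that model 19.6% of genes were lower and 19.7% higher at an unadjusted p under 0.05) and an adjusted p of 0.0736.

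*Lrig3* was detected in every library, at counts too low for the intervals to exclude a ratio of 0 on the log2 scale. Its single transcript NM_177152 had 42 and 31 estimated counts in the CD4+Lrig1+ libraries of set 1 and set 2, against 43 and 21 in the CD4+Lrig1- libraries. The corresponding FPKM values were 0.189 and 0.118, against 0.21 and 0.0799. The groups overlapped, and the ratio lay below 0 in one set and above 0 in the other. The log2 ratios were -0.15 (-0.80 to 0.49) and 0.47 (-0.37 to 1.35). The *Lrig3* log2 fold change was 0.07 ± 0.80 (SE, -2.16 to 2.29) with an adjusted p of 1.0 in edgeR's quasi-likelihood test, and 0.14 ± 0.48 (-1.0 to 1.28) with an adjusted p of 0.868 with the table block. All 3 genes passed the filter on low counts.

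**Figure D2:**
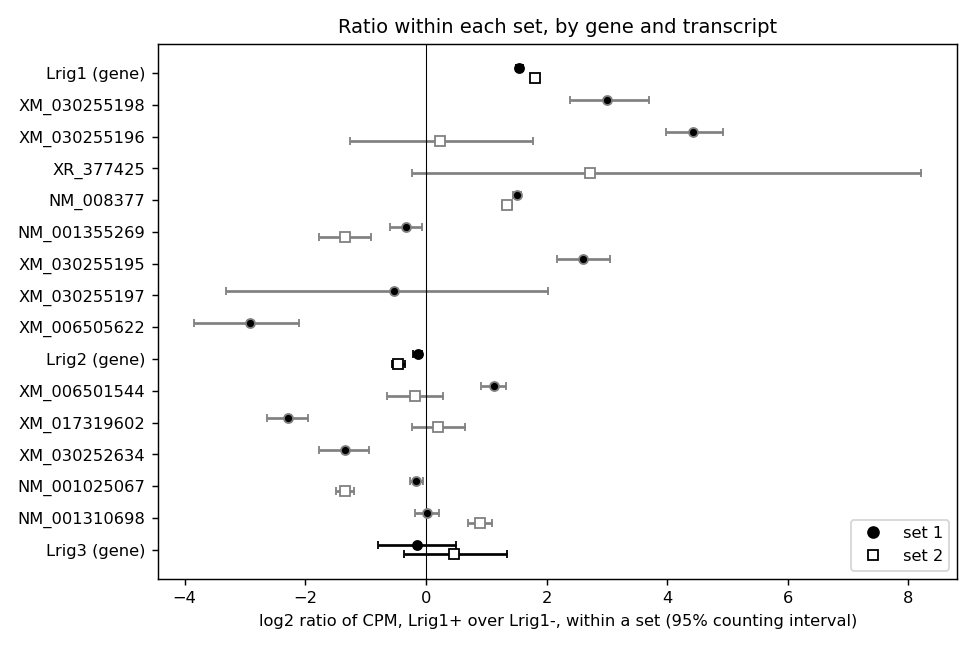
Difference in log2 CPM, CD4+Lrig1+ minus CD4+Lrig1-, for the 3 genes (black) and the transcripts of *Lrig1* and *Lrig2* (grey) in set 1 (filled) and set 2 (open), with bars for the 95% counting interval and no point where a library is at 0. *Lrig1* lies at 1.55 and 1.81, *Lrig2* at -0.14 and -0.46, and the wide intervals of *Lrig3* include 0 in both sets.

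The make-up of the family follows from the sort on Lrig1, because a higher *Lrig1* level lowers the shares of *Lrig2* and *Lrig3*, and is given as a description. *Lrig1* made up 87.6% and 89.3% of the summed FPKM of the 3 genes in CD4+Lrig1+ cells of set 1 and set 2, against 68.8% and 63.3% in CD4+Lrig1- cells. The means were 88.4 ± 1.18% (SD, n = 2) and 66.0 ± 3.88% (SD, n = 2), a difference of 22.4 percentage points (two-sided exact permutation p = 0.333, the smallest that 2 libraries against 2 allow). *Lrig2* made up 11.2 ± 1.22% in CD4+Lrig1+ and 33.1 ± 4.0% in CD4+Lrig1- cells (SD, n = 2 each). *Lrig3* stayed below 1% of the family in each library. Put as a ratio of TPM, *Lrig1* exceeded *Lrig2* by 7.28-fold and 8.67-fold in CD4+Lrig1+ cells, and by 2.27-fold and 1.76-fold in CD4+Lrig1- cells. The ratio of *Lrig2* to *Lrig3* gave no such split, with 30.8 and 23.2 against 30.6 and 44.3. The summed family level was 126 and 44.8 TPM in CD4+Lrig1+ cells, against 56.8 and 16.5 TPM in CD4+Lrig1- cells.

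Most *Lrig1* counts fell on NM_008377, a transcript of 4966 bases with 19 exons that starts at the outer end of the gene. It took 84.3% and 66.1% of the *Lrig1* counts in the CD4+Lrig1+ libraries of set 1 and set 2, against 86.8% and 91.5% in the CD4+Lrig1- libraries. Its counts were 9700 and 4886, against 3132 and 1812, with FPKM values of 36.1 and 15.5 against 12.7 and 5.7. The log2 ratio of NM_008377 was 1.51 (1.45 to 1.57) in set 1 and 1.34 (1.26 to 1.42) in set 2, so the groups did not overlap in this transcript taken alone, as held in that direction for 12.6% of transcripts tested and in the other for 11.9%. In the fit over 45339 transcripts its log2 fold change was 1.46 ± 0.59 (SE) with an adjusted p of 1 in edgeR's quasi-likelihood test, and 1.44 ± 0.10 with an adjusted p of 0.881 with the table block. No transcript of any gene was called in either fit (0.0% in each direction). Unadjusted p under 0.05 was reached by 978 transcripts higher (2.16%) and 576 lower (1.27%) without the block, and by 1216 (2.68%) and 951 (2.1%) with it. By the Wald test of DESeq2, 397 transcripts were higher and 237 lower.

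The other transcript with many *Lrig1* counts was XM_030255195, and its counts were concentrated in a single library. This predicted transcript of 4798 bases starts inside the gene, 18205 bases downstream of the outermost start. It had 335 counts and 1.29 FPKM in CD4+Lrig1+ cells of set 1, against 51 counts and 0.212 FPKM in CD4+Lrig1- cells. In set 2 it had 2417 counts and 7.92 FPKM in CD4+Lrig1+ cells and was at 0 in CD4+Lrig1- cells. With 3 counts as the floor this is at least 758-fold by counting alone. The bound does not cover the assignment of reads among transcripts that share exons, which StringTie estimated. That library placed 32.7% of its *Lrig1* counts on this transcript, against 0% to 2.91% in the other 3. Its log2 fold change over the libraries did not pass the test (adjusted p of 1 without the block and 0.903 with it, edgeR's quasi-likelihood test).

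The remaining 6 *Lrig1* transcripts were minor and varied in direction. NM_001355269, which is 4819 bases long and shares its start with NM_008377, had 226 and 67 counts in CD4+Lrig1+ cells (FPKM 0.865 and 0.217), against 261 and 160 in CD4+Lrig1- cells (FPKM 1.09 and 0.517). Its log2 ratios of -0.33 (-0.59 to -0.06) and -1.34 (-1.78 to -0.92) ran opposite to those of the gene in both sets, and it did not pass the test. XM_030255196 had 960 counts against 41 in set 1 (FPKM 3.42 and 0.158) and 10 against 8 in set 2 (FPKM 0.0294 and 0.024). This transcript starts within 153 bases of the outermost start and was thus abundant in 1 library only. The misc_RNA XR_377425, which begins at the outermost start, had 70 counts against 0 in set 1, at least 21.5-fold higher by counting alone. In set 2 it had 7 against 1 (FPKM 0.256, 0, 0.0192 and 0.0026 over both sets). The other 3 start inside the gene and were at 0 in both libraries of set 2. In set 1 XM_030255198 had 200 counts against 23 (FPKM 0.446 and 0.0552), XM_006505622 had 14 against 97 (0.0588 and 0.445), and XM_030255197 had 3 against 4 (0.0111 and 0.014).

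Of the 8 *Lrig1* transcripts 6 passed the filter, and of these 3 were higher and 1 lower in CD4+Lrig1+ cells in both sets, where 26.3% of all transcripts tested were higher and 29.8% lower in both. The transcripts share most of their exons, and the assignment of a read to one of them was estimated by StringTie, so counts of single transcripts are less certain than the sum. Grouped by start, the 4 transcripts that begin within 153 bases of the outermost start held 95.2% and 67.3% of *Lrig1* counts in CD4+Lrig1+ cells, against 95.2% and 100% in CD4+Lrig1- cells. Their log2 ratio was 1.55 (1.5 to 1.61) in set 1 and 1.24 (1.16 to 1.31) in set 2. Without the internal starts, the difference between the groups in set 2 was therefore smaller than that of the whole gene, and still above 0.

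**Figure D3:**
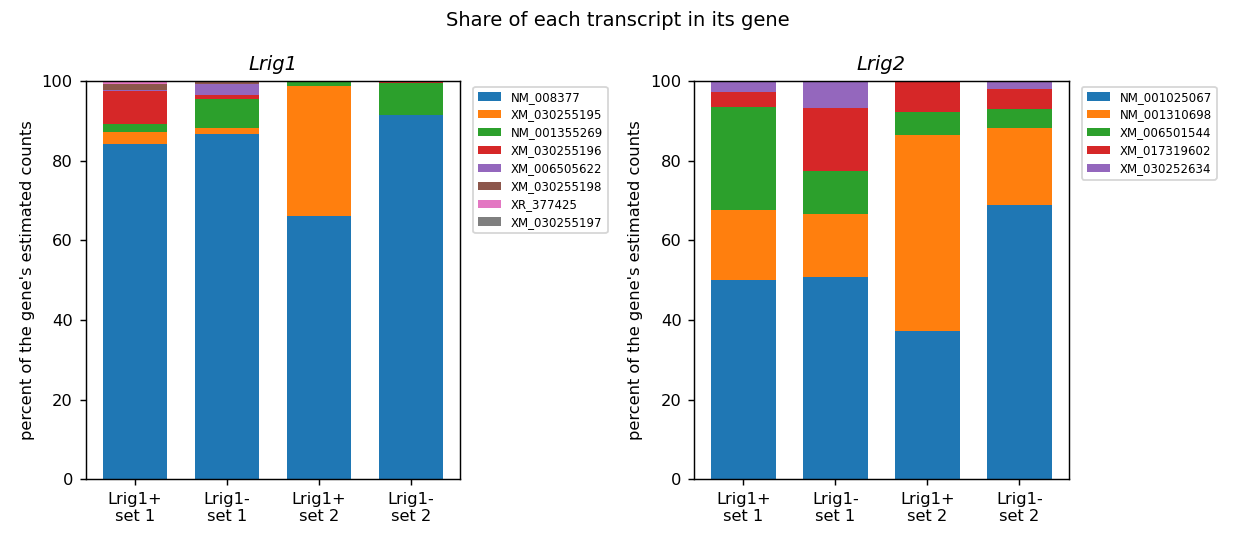
Share of the estimated counts of *Lrig1* and of *Lrig2*, in percent, that fell on each transcript of the gene, with 1 stacked bar per library. NM_008377 makes up 66.1% to 91.5% of *Lrig1* counts, and XM_030255195 stands out with 32.7% in the CD4+Lrig1+ library of set 2, the same library in which NM_001310698 takes 49.2% of *Lrig2* counts.

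**Figure D4:**
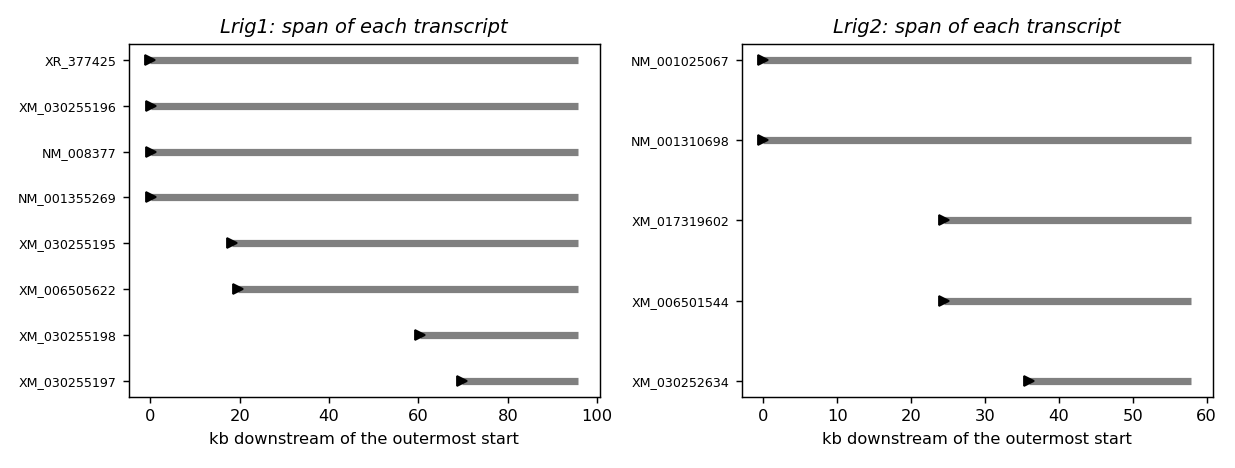
Span of each listed transcript of *Lrig1* and *Lrig2* in kilobases downstream of the outermost start of its gene, with the direction of transcription from left to right. For *Lrig1*, 4 transcripts begin at the outer end and 4 further inside, and all 8 end at the same position.

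Transcripts of *Lrig2* also differed in how counts were divided. NM_001025067 and NM_001310698 begin at the same base and differ by 21 coding bases, which equal 7 codons, at the 5′ end of exon 16 of 18. The stretch is shown because the division between the transcripts turns on it. It lies at chr3:104462788-104462808 on the minus strand (GRCm38, GENCODE transcripts matched to RefSeq), with its bases in capitals and 30 bases of mRNA on each side in lower case.
NM_001025067: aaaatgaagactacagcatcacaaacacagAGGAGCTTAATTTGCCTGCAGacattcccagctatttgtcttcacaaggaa
NM_001310698: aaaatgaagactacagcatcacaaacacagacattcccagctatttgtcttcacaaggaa
NM_001025067 had 1285 and 489 counts in CD4+Lrig1+ cells of set 1 and set 2 (FPKM 3.31 and 1.07), against 1321 and 1169 in CD4+Lrig1- cells (FPKM 3.69 and 2.54). NM_001310698, which lacks the stretch, had 450 and 646 counts (FPKM 1.16 and 1.42), against 410 and 327 (FPKM 1.15 and 0.713). Of the counts on both transcripts, those with the stretch made up 74.1% (95% exact binomial interval 71.9 to 76.1) in CD4+Lrig1+ and 76.3% (74.2 to 78.3) in CD4+Lrig1- cells of set 1. In set 2 the share was 43.1% (40.2 to 46.0) in CD4+Lrig1+ and 78.1% (76.0 to 80.2) in CD4+Lrig1- cells. On these estimates the CD4+Lrig1+ library of set 2 stood apart from the other 3. The CD4+Lrig1+ library of set 1 did not share the shift. The stretch is 21 of the 7174 bases of NM_001025067, so few reads can cover it, and StringTie estimated the assignment of the rest. The intervals treat every estimated count as a read over the stretch and are therefore too narrow. Neither transcript passed the test, with log2 fold changes of -0.59 ± 0.68 and 0.49 ± 0.67 (SE).

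The other 3 *Lrig2* transcripts are predicted and start 24427 to 35901 bases downstream of the outermost start. XM_006501544 had 664 and 78 counts in CD4+Lrig1+ cells, against 280 and 83 (FPKM 1.06 and 0.106 against 0.483 and 0.111). XM_017319602 had 91 and 100 counts, against 408 and 82 (FPKM 0.145 and 0.135 against 0.707 and 0.109). XM_030252634 had 74 and 0 counts, against 174 and 35 (FPKM 0.154 and 0 against 0.397 and 0.0619). XM_006501544 and XM_017319602, which begin 1 base apart, thus lay on opposite sides in set 1, while internal starts together held 32.3% and 33.2% of *Lrig2* counts there. In set 2 internal starts held 13.6% and 11.8%. All 5 *Lrig2* transcripts passed the filter, of which 1 was higher and 2 were lower in CD4+Lrig1+ cells in both sets, and the outermost start alone gave log2 ratios of -0.12 (-0.21 to -0.02) and -0.49 (-0.60 to -0.37), close to those of the gene.

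All 3 genes were higher in set 1 than in set 2 in both groups on the CPM scale. For *Lrig1* the log2 ratio of set 1 over set 2 was 0.78 (0.74 to 0.83) in CD4+Lrig1+ and 1.04 (0.96 to 1.12) in CD4+Lrig1- cells. For *Lrig2* it was 1.11 (1.01 to 1.21) and 0.79 (0.70 to 0.88), and for *Lrig3* 0.58 (-0.12 to 1.30) and 1.21 (0.42 to 2.03). The sets differed by transcript length, with a mean length weighted by counts of 4226 and 4377 bases in set 1 and of 2783 and 2830 bases in set 2. Genes with transcripts of 6000 bases or more were higher in set 1 by a median log2 of 1.12 in CD4+Lrig1+ and 1.0 in CD4+Lrig1- cells, whereas genes under 2000 bases were lower by a median of -0.64 and -0.68. The listed transcripts average 4979 bases for *Lrig1*, 8191 for *Lrig2* and 4050 for *Lrig3*. Genes from 4000 to under 6000 bases, where *Lrig1* and *Lrig3* lie, were higher in set 1 by a median of 0.50 in CD4+Lrig1+ and 0.40 in CD4+Lrig1- cells. Between the groups of a set, the medians over these length classes stayed between -0.19 and 0.06. For genes of 6000 bases or more, where *Lrig2* lies, they were -0.09 in set 1 and -0.19 in set 2. The part of transcript length in the levels of the family was not tested.

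Genes known to act with Lrig proteins were examined as a list of 16, of which 14 passed the filter. Without the block 0 were called, and with the table block 5 were called higher in CD4+Lrig1+ cells and 0 lower, where 14.6% and 12.8% of all genes were called. The median log2 fold change was 0.03 over the 14 genes and -0.04 over all genes tested. Those called were the receptors *Bmpr2*, *Bmpr1a*, *Erbb3* and *Neo1* and the ligand *Ntn1*. *Neo1*, with 0 and 5 counts in CD4+Lrig1- cells, passed the filter on low counts only through the CD4+Lrig1+ libraries. Its call and its lack of overlap are therefore no support. *Bmpr2*, a type II receptor for bone morphogenetic proteins, had 27.7 and 19.3 CPM in CD4+Lrig1+ cells, against 11.8 and 8.39 (log2 fold change with the block 1.21 ± 0.10, SE). *Bmpr1a*, a type I receptor for the same ligands, had 3.75 and 2.39 CPM, against 1.48 and 1.31 (1.10 ± 0.29). In the higher direction the groups did not overlap in 5 of the 14 genes, *Bmpr2*, *Bmpr1a*, *Ntn1* and *Neo1* included, against 14.3% of all genes tested. In the lower direction they did not overlap in 2 of the 14, against 11.8% of all genes tested.

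*Ntn1* encodes netrin 1, a guidance cue that neogenin binds, and had 11.5 and 10.1 CPM in CD4+Lrig1+ cells against 2.55 and 1.96 (2.27 ± 0.17, adjusted p of 1.19e-04 in edgeR's quasi-likelihood test with the table block). *Neo1*, which encodes neogenin, had 124 and 86 counts in CD4+Lrig1+ cells against 0 and 5. This is at least 38.1-fold higher in set 1, with 3 counts as the floor, and 16.2-fold higher in set 2. *Erbb3*, an ErbB receptor, had 13.4 and 20.5 CPM against 8.77 and 14.0 (0.58 ± 0.11), and its groups overlapped, although it was higher in CD4+Lrig1+ cells within each set. *Egfr*, the ErbB receptor on which Lrig1 has been studied most and named here after its values were seen, had 4 to 15 counts per library and did not pass the test.

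The partners with the highest levels were not called. *Cbl* had 578 and 164 CPM in CD4+Lrig1+ cells against 660 and 196, and the log2 fold change with the block was -0.22 ± 0.08 (SE, adjusted p of 0.0939, edgeR's quasi-likelihood test). *Adam17* had 94.5 and 71.8 CPM against 91.9 and 73.4 (0.00 ± 0.07). *Usp8*, a deubiquitinase that regulates ErbB receptor turnover, had 82.5 and 51.6 CPM against 84.2 and 56.1 (-0.08 ± 0.07). The differences of these 3 between the groups were smaller than those between the sets.

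Other genes whose proteins combine leucine-rich repeats with immunoglobulin-like domains were mostly at 0 or removed by the filter. Of a list of 30 such genes, 11 were at 0 in all 4 libraries and 11 passed the filter. Without the block 0 were called, and with it 3 were called higher and 3 lower, where 14.6% and 12.8% of all genes were called. The median log2 fold change was -0.32, against -0.04 over all genes tested. *Amigo2*, an adhesion protein, had 18.0 and 13.7 CPM in CD4+Lrig1+ cells against 48.2 and 55.4 (log2 fold change with the block -1.71 ± 0.14, SE). *Ntrk3*, a neurotrophin receptor, had 18.2 and 17.2 CPM against 24.0 and 22.3 (-0.39 ± 0.09). Together with *Adgra2*, an adhesion G protein-coupled receptor (0.327 and 0.209 CPM against 2.09 and 0.407), these were the 3 called lower. *Adgra2* lay just under the threshold (-1.91 ± 0.59, adjusted p of 0.0495, edgeR's quasi-likelihood test with the table block). Its log2 ratio was -2.68 (-3.51 to -1.92) in set 1 and -0.96 (-2.11 to 0.11) in set 2.

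The 3 called higher were expressed at low levels. *Lrrn3* had 1.33 and 2.82 CPM in CD4+Lrig1+ cells, against 0.564 and 0.481 (1.91 ± 0.44, SE). *Lrfn4* had 1.71 and 0.592 CPM, against 0.188 and 0.13 (2.72 ± 0.56). *Islr* had 0.423 and 0.871 CPM, against 0.104 and 0.0926 (2.63 ± 0.71). In CD4+Lrig1- cells *Lrfn4* had 9 and 7 counts and *Islr* 5 and 5. Both genes passed the filter on low counts only with the help of the CD4+Lrig1+ libraries, so their calls are no support. With *Lrrn3* alone taken as higher, the genes called in this list still went in both directions. In the lower direction the groups did not overlap in 6 of the 11 genes, against 11.8% of all genes tested. In the higher direction they did not overlap in 3, *Lrfn4* and *Islr* included, against 14.3% of all genes tested. The whole list summed to 34.6 and 18.0 TPM in CD4+Lrig1+ cells, below the 110 and 40.0 TPM of *Lrig1* alone. In CD4+Lrig1- cells the list summed to 64.5 and 37.3 TPM, above the 39.1 and 10.4 TPM of *Lrig1*. Among the 5 genes of the list with the highest mean FPKM, those not called were *Amigo1* (-0.33 ± 0.20), *Amigo3* (-0.08 ± 0.34) and *Lrfn1* (-0.93 ± 0.29).

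**Figure D5:**
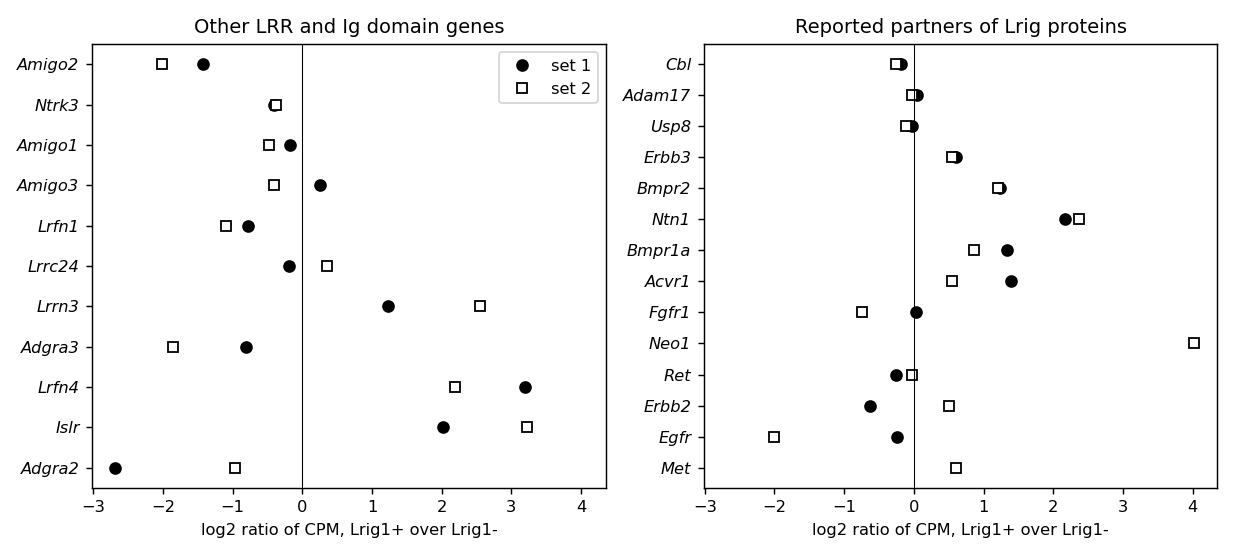
Difference in log2 CPM, CD4+Lrig1+ minus CD4+Lrig1-, in set 1 and set 2 for genes known to act with Lrig proteins and for other genes with leucine-rich repeats and immunoglobulin-like domains that passed the filter. *Ntn1*, *Bmpr2* and *Bmpr1a* lie above 0 in both sets and *Amigo2* below 0 in both, and no point is drawn for *Neo1* or *Met* in set 1, where 1 of the libraries is at 0.

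Genes next to the members were compared with them. *Slc25a26*, a mitochondrial carrier gene on the opposite strand, overlaps the 3′ end of *Lrig1* by 131 bases and had 5.25 and 4.96 CPM in CD4+Lrig1+ cells against 5.47 and 4.68. The groups overlapped in this neighbour, in contrast to *Lrig1*. *Mir7041* lies within *Lrig1* on the same strand, so its reads are uncertain, and had 14 and 3 counts against 4 and 0, too few for a comparison. *Kbtbd8*, on the other side of *Lrig1* at 417582 bases, had 9.98 and 7.54 CPM against 15.9 and 11.4 and was called lower with the table block (adjusted p of 0.0074, edgeR's quasi-likelihood test). Beside *Lrig2*, the log2 fold change without the block was 0.08 for *Magi3* and 0.21 for *Slc16a1*, a lactate transporter gene. Beside *Lrig3* it was -0.17 for *Slc16a7* and 0.32 for *Atp23*, and *Gm29997*, which overlaps *Lrig3*, had 0 counts in all libraries.

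The genes nearest in pattern were sought among 8831 genes with a mean of at least 10 CPM, by the root mean square difference of log2 CPM centred over the 4 libraries. For *Lrig1* these were *Inppl1* (0.0621), a lipid phosphatase gene, *Maf* (0.0926), a transcription factor gene, *Rnf43* (0.0998), a ubiquitin ligase gene, *Gfi1* (0.107), a transcriptional repressor gene, and *Tns1* (0.107), which encodes a focal adhesion protein. *Maf* for example had 127 and 78.1 CPM in CD4+Lrig1+ cells against 39.2 and 19.3. The pattern of each combines a difference between groups with one between sets. For *Lrig2* the nearest were *Rock1* (0.00883), *Cnot1* (0.0214), *Bcl11b* (0.0223), *Tshz1* (0.0254) and *Kansl1* (0.0299), in which the sets differed more than the groups. *Rock1*, a kinase gene, had 181 and 82.6 CPM in CD4+Lrig1+ cells against 197 and 115. For *Lrig3*, whose own pattern rests on 21 to 43 counts per library, they were *Habp4* (0.0284), *Fancc* (0.0539), *D11Wsu47e* (0.0674), *Cog4* (0.0766) and *Gm10130* (0.0801).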

How the data were processed

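RNA of CD4+ T cells of the spleen, sorted into Lrig1+ and Lrig1-, was converted to libraries with a stranded mRNA kit. Per the submitters' processing notes, the tools were Trimmomatic 0.38, HISAT2 2.1.0, Bowtie2 2.3.4.1 and StringTie 2.1.3b, with GRCm38 (mm10) as build. The estimated counts per transcript were deposited by the authors without normalization. The deposited FPKM values were scaled by transcript length and mapped fragments of each library, and the deposited TPM values to the same total in every library. Libraries held 44865070 to 59977951 estimated counts, and no row lacked a gene.

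A further table with 6 value columns was left out, since its headers do not state whether cells were Lrig1+ or Lrig1-. The libraries carry no replicate number, so the replicate block could not be fitted. The table that holds a library served as set.

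Counts, whole numbers as deposited, were summed per gene, filtered with filterByExpr, normalized by TMM and tested with the quasi-likelihood test of edgeR 4.0.16 (R 4.3.3) across 16123 genes, with the group as the only term, at a Benjamini-Hochberg adjusted p under 0.05. Transcripts were fitted alike. Ratios within a set have exact conditional binomial intervals, and shares exact binomial intervals (95%, SciPy 1.17.1, Python 3.11.15). PCR duplicates are not removed by molecular identifiers, so these cover counting error only. Floors use 3 counts per library. Alternatives were the table block, DESeq2 1.42.0, edgeR's exact test, limma 3.58.1 on log2 FPKM with a pseudocount of 1 or 0.1, no filter, DESeq2's size factors and leaving out each library. The fits were tested on simulated counts with no difference between sets. Their spread between libraries was smaller than the fit without the block estimated here, so how that fit performs on these data was not tested. Promoter windows are from RefSeq, GRCm38.p6, and 4 of the 5 transcripts with NM identifiers matched GENCODE.

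Members and lists were chosen with earlier results of these data known. The rule for named genes took the family and its transcripts, overlapping genes and the nearest protein-coding gene on each side, the 5 genes nearest in pattern, and from each list the 5 with the highest mean FPKM and any called. Cell type markers were given by summed level, and those of the stromal, endothelial and epithelial list also by gene, after their values were seen.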

Additional observations from a re-analysis of the deposited data

How the results depend on the processing

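*Lrig1* was higher in CD4+Lrig1+ cells under all 11 alternatives, with log2 fold changes of 1.61 to 1.72 by other tools and settings and of 1.22 to 2.29 when 1 library was left out, and adjusted p from 2.78e-05 to 1.0. Only the table block passed the threshold (1.68, adjusted p = 2.78e-05, edgeR's quasi-likelihood test). It was the only alternative with a set term, and its fit left 1 residual degree of freedom. *Lrig2* ranged from -0.29 to -0.20 and, with 1 library left out, from -0.88 to 0.24. It turned to 0.24 when the CD4+Lrig1- library of set 1 was left out and to 0.20 when the CD4+Lrig1+ library of set 2 was. *Lrig3* ranged from 0.01 to 0.14 and, with 1 library left out, from -0.41 to 0.83. It turned to -0.24 when the CD4+Lrig1+ library of set 1 was left out and to -0.41 when the CD4+Lrig1- library of set 2 was. Fits other than the table block, including those with a library left out, had no set term, so differences between sets enter them. Genes called higher and lower numbered 2358 and 2056 with the table block, 260 and 50 by the DESeq2 Wald test, and 179 and 14 by edgeR's exact test. When the CD4+Lrig1+ or the CD4+Lrig1- library of set 1 was left out, 5 and 88 were called higher, and with those of set 2 left out 41 and 1. Lower calls then numbered 0 to 2. Transcripts called by the DESeq2 Wald test numbered 397 higher and 237 lower. The *Lrig1* log2 ratio in set 2 was 1.91 with total counts in place of TMM and 1.92 from FPKM. The *Lrig1* share of the family differed by 27.4 points in CPM, and by 19.6 to 25.1 points of FPKM with 1 library left out. No paired analysis was possible because the columns carry no replicate numbers to pair by. The table block stood in for it, since it compares the libraries within each table. With 1 library per group and set, the group difference within a set had no replicate, and *Lrig3*, with at most 43 counts per library, could show only large differences.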
